A study of Mus musculus with 2 samples.

Results

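The cytosolic ribosome carries a fixed set of proteins, and the genes described here encode those proteins in the mouse. Members were autosomal protein-coding genes of GENCODE M21 named Rpl or Rps with a number and, at most, an a or x after it, together with Rplp0, Rplp1, Rplp2 and Rpsa. Of 76 names that matched, 4 lie on the X chromosome and were left out, so 72 of the 20807 autosomal protein-coding genes were members. The members comprise 43 genes of the large ribosomal subunit and 29 genes of the small subunit. The rule reads only names, gene type and chromosome, but it was settled with earlier results of these data known.

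Ribosomal proteins assemble with ribosomal RNA into the large and small subunits, which join on a messenger RNA to translate it. The proteins are needed in near equal numbers in every cell that makes protein, and their genes are known as abundantly transcribed housekeeping genes. Many of their transcripts start with a C followed by a run of pyrimidines, the 5′ terminal oligopyrimidine motif, through which the mTOR pathway controls their translation. In neurons, protein synthesis in cell bodies and dendrites contributes to lasting changes of synapses.

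Open chromatin was measured with DNase-seq, in which the enzyme DNase I cuts accessible DNA, in right cerebral cortex from female adult B6CASTF1/J mice, first-generation hybrids of C57BL/6J and CAST/EiJ, aged 18 to 20 months. The 2 biological replicates form 1 group without treated or control samples, so the values below compare genes and replicates. Both replicates carry the same donor identifier but separate biosample entries, so separate animals are not established and the spread between replicates may be technical. Whole tissue was used, so a peak of smaller value can come from fewer cells with an open promoter or from less cutting per cell, and these cannot be told apart.

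The shorter deposited peak list held 86601 peaks in replicate 1 and 88482 in replicate 2, and 307092 and 279769 footprints were listed. A footprint is a short stretch inside open chromatin that is cut less than its flanks, as under a bound protein. Peak values in each library were whole multiples of 1 step, 0.00497 in replicate 1 and 0.00892 in replicate 2. Were each step 1 read on a reads-per-mega scale, the libraries would hold 201 M and 112 M reads, which no file states. Promoters of the pan-neuronal genes Syt1, Snap25 and Rbfox3 had a peak in both replicates, as had 3 of 5 markers of excitatory neurons, while 0 of 3 markers of inhibitory neurons did. In the longer deposited list these became 5 of 5 and 3 of 3, with inhibitory values of 0.338 to 0.512 in replicate 1 and 0.606 to 0.785 in replicate 2. In either list, 2 of 3 markers each of astrocytes, oligodendrocytes and microglia and 1 of 2 endothelial markers had one. The members were also set beside 78 genes of the mitochondrial ribosome, 38 proteasome subunit genes and 80 nuclear genes of oxidative phosphorylation.

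The promoters at either end of the order of peak values are shown here, together with 2 others rich in footprinted bases, so that the open and footprinted DNA can be read directly. Each RefSeq sequence of build GRCm38.p6 runs from 150 bases before to 20 bases after the more upstream of the RefSeq and GENCODE starts, 5′ to 3′ on the strand of the gene. Capitals mark bases inside a footprint in both replicates. Only genes in the RefSeq table whose GENCODE start lies at most 100 bases upstream of the RefSeq start were considered. The 3 strongest of these were Rpl9 at chr5:65391425-65391594 on the minus strand, Rplp0 at chr5:115559317-115559486 on the plus strand and Rpl13a at chr7:45128742-45128911 on the minus strand.
Rpl9: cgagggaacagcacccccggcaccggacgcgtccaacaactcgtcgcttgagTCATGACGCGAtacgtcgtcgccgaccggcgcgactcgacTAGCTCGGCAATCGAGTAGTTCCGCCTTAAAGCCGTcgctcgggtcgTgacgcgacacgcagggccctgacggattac
Rplp0: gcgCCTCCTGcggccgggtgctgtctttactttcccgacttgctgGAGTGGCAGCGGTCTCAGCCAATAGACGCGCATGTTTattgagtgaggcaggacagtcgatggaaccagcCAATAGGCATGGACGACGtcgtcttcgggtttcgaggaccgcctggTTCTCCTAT
Rpl13a: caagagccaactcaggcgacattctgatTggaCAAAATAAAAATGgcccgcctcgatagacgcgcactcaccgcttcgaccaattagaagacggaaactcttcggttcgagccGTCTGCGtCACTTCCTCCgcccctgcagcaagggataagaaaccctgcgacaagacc
The 2 weakest were Rpl6 at chr5:121204331-121204500 and Rpl4 at chr9:64173225-64173394, both on the plus strand.
Rpl6: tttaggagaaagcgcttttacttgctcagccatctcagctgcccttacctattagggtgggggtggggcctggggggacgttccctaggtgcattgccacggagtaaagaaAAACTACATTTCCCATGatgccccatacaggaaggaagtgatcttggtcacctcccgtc
Rpl4: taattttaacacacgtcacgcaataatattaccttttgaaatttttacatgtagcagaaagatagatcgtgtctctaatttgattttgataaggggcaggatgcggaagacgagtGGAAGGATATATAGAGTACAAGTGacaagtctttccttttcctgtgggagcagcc
The 2 of these genes with the most footprinted bases within 500 bp of the start, apart from those above, were Rps12 at chr10:23787256-23787425 on the minus strand and Rpl5 at chr5:107900352-107900521 on the plus strand.
Rps12: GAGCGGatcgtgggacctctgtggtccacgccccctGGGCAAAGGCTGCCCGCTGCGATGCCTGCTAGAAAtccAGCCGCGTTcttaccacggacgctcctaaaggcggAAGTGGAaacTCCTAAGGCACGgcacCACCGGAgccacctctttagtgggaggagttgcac
Rpl5: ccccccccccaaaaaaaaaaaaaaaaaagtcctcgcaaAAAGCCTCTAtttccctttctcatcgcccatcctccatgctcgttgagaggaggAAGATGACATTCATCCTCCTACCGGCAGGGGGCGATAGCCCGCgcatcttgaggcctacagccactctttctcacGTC
Within these 170 bases, both replicates footprinted 48 bases of Rpl9, 71 of Rplp0 and 31 of Rpl13a. The weak promoters carried less, 17 bases in Rpl6 and 24 in Rpl4, while Rps12 had 76 and Rpl5 had 56.

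Both replicates held a promoter peak for all 72 ribosomal protein genes (exact 95% binomial interval 95% to 100%), against 59.1% of all autosomal protein-coding genes. Promoters here reach 500 bp to each side of every annotated start, and the strongest peak that overlaps gives the value. That value is a signal as deposited, and no source used here states its normalization. The members' median value was 3.24 in replicate 1 and 4.47 in replicate 2, or 3.85 ± 0.87 over the replicates (SD, n = 2). Among all 12289 genes with a peak in both replicates the medians were 2.24 and 3.28. Of the 72 members, 56 lay above the median of those genes in both replicates, against 44.9% of genes. By the mean of the replicates' log2 values, 15 members were in the highest 10%, against 9.99% of genes, and only Rpl4 was in the lowest 25%.

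The members ranged from 0.880 (Rpl4) to 6.23 (Rplp0) in replicate 1 and from 1.605 (Rpl6) to 8.64 (Rpl9) in replicate 2. On the scale assumed above, these peaks rested on 177 to 1253 steps in replicate 1 and 180 to 969 in replicate 2. The median member peak held 651.5 and 501.5 steps, where counting error alone gives exact 95% Poisson intervals of 603 to 704 and 459 to 548 for the nearest whole numbers, 652 and 502. Across members the replicate values ran together, with Pearson's r of 0.81 and Spearman's rho of 0.79 over 72 genes that share both libraries, against an r of 0.94 over all genes with a peak. The SD of the members' log2 difference between replicates was 0.33, and neighbours in the order of mean log2 values differed by less than that.

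**Figure D1:**
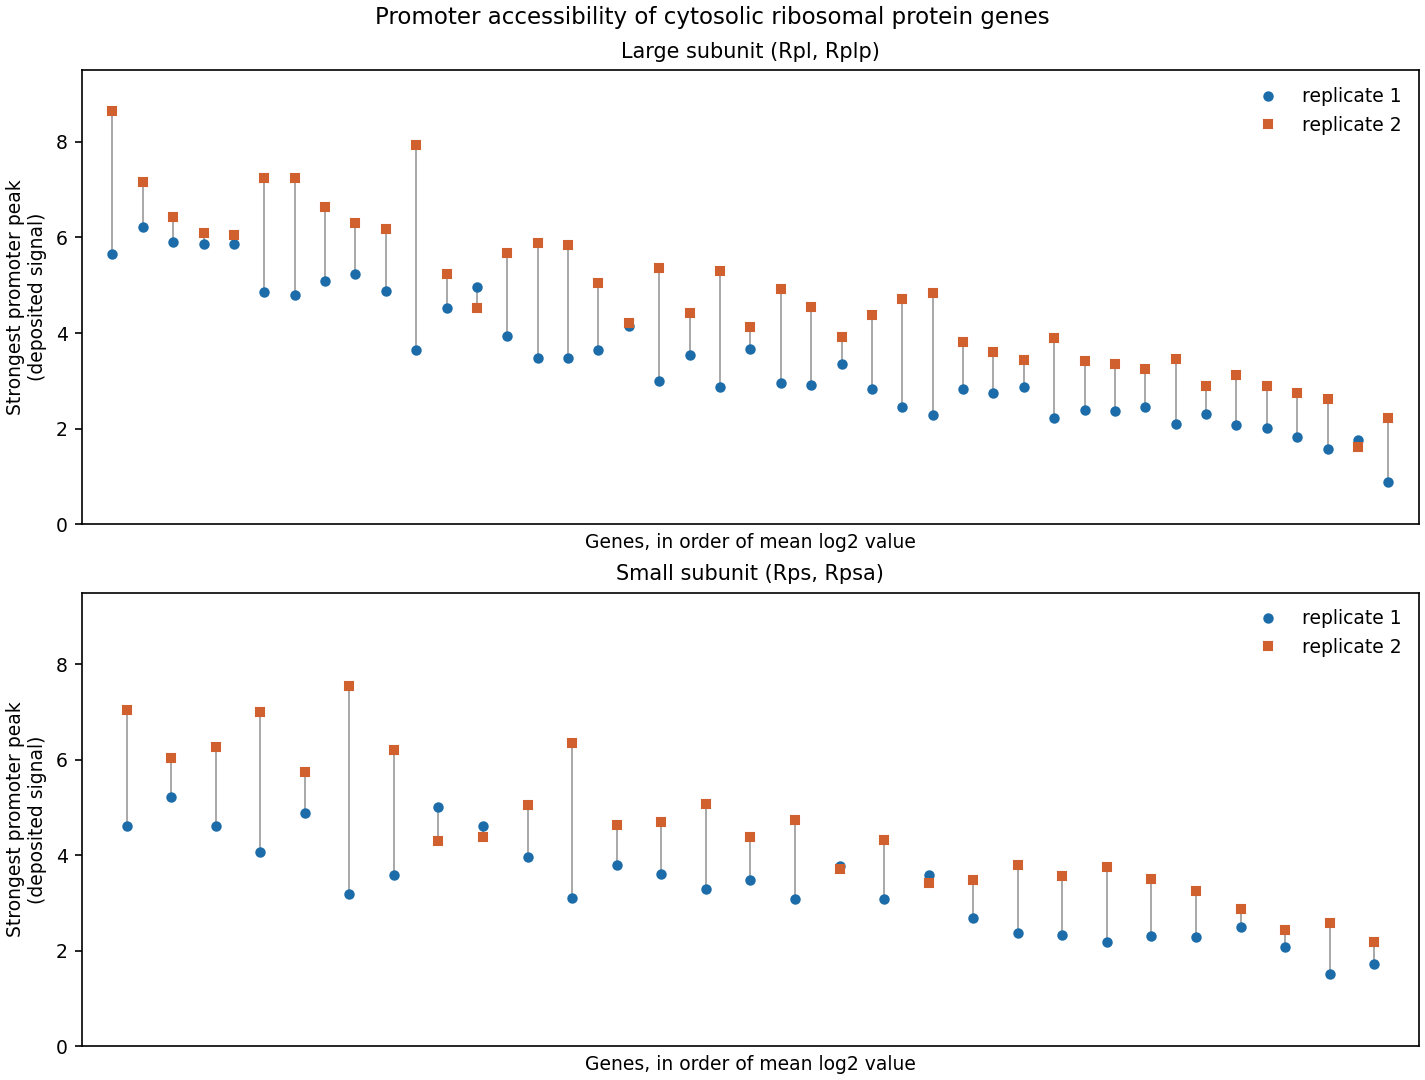
Value of the strongest promoter peak (deposited signal, linear axis from 0) for each of the 43 large-subunit and 29 small-subunit genes, ordered by the mean log2 value. Circles are replicate 1, squares replicate 2 and the line joins them; replicate 2 is the higher for 66 of 72 members.

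The highest mean value was that of Rpl9, a large-subunit protein near the base of the stalk, with 5.65 in replicate 1 and 8.64 in replicate 2. Rplp0, the acidic protein that anchors the ribosomal stalk, had 6.23 and 7.16. Rpl13a, known for a role outside the ribosome in silencing inflammatory transcripts, had 5.90 and 6.43. These 3 promoters overlapped in value between replicates, and their order was not the same in both. The other members of the 10 highest were Rpl37 (5.86 and 6.10), Rpl15 (5.86 and 6.05), Rpl23 (4.86 and 7.24), Rpl7a (4.79 and 7.25), Rpl18 (5.08 and 6.63), Rpl27a (5.23 and 6.31) and Rps2 (4.61 and 7.04). Rps2 was the only small-subunit gene among them. The values of Rpl18 came from different peaks, centred 137 bp upstream of its start in replicate 1 and 2583 bp downstream in replicate 2.

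The weakest promoter was that of Rpl4, whose protein lines the exit tunnel for the growing peptide, with 0.880 in replicate 1 and 2.22 in replicate 2. Its strongest peak was centred 385 and 355 bp upstream of its start, toward the start of the divergent gene Zwilch. A separate peak over the start itself had 0.870 and 1.99. Rpl6 had 1.76 and 1.605. Also among the 10 lowest were Rps23 (1.52 and 2.58), which sits at the decoding centre, Rpl35a (1.57 and 2.62), Rpl32 (1.82 and 2.75), Rps10 (2.09 and 2.43), Rpl19 (2.02 and 2.89), Rpl35 (2.07 and 3.11) and Rpl7 (2.31 and 2.90). The 10 highest and 10 lowest were chosen on these values, and both ends were set apart in each replicate.

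The values of the subunits overlapped. Large-subunit genes had a median of 3.0 in replicate 1 and 4.54 in replicate 2, and small-subunit genes 3.30 and 4.38, so the order of the subunits turned round between replicates. The highest 10% of all genes with a peak held 11 of the 43 large-subunit and 4 of the 29 small-subunit genes.

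The stalk recruits the translation factors that hydrolyse GTP. Its 3 genes all had values above the median of all genes in both replicates, against 44.9% of genes with a peak. Rplp0 is given above. Rplp1 had 3.53 in replicate 1 and 4.41 in replicate 2, and Rplp2 had 2.91 and 4.54. The strongest Rplp2 peak was centred 220 and 230 bp inside the gene.

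Rpl5 and Rpl11 bind 5S ribosomal RNA, and the particle they form is known to hold back Mdm2 when ribosome assembly is disturbed. Rpl5 had 2.28 in replicate 1 and 4.83 in replicate 2, while Rpl11 had 2.38 and 3.41. The promoters had nearly the same value in replicate 1 and differed in replicate 2. Mdm2, which is no member, had 2.25 and 5.13.

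Among the genes for proteins at the exit tunnel, Rpl26 had 3.64 in replicate 1 and 7.94 in replicate 2, the highest of the 5 in both. Rpl17 had 2.83 and 3.82, Rpl23a 2.37 and 3.36, and Rpl35 2.07 and 3.11. With Rpl4 at 0.880 and 2.22, the group spanned most of the range of all members. Of the 5, 3 lay above the median of all genes in both replicates, against 44.9% of genes with a peak and 77.8% of members.

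Rps6, the small-subunit protein that S6 kinases phosphorylate after mTOR signalling, had 3.60 in replicate 1 and 4.70 in replicate 2. Rps27a, which is made as a fusion with ubiquitin, had 2.18 and 3.74, centred 199 and 219 bp inside the gene.

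In human, loss of a copy of some ribosomal protein genes causes Diamond-Blackfan anaemia. From the genes so known, 11 with mouse counterparts among the members were listed here, a selection and not the full set. The medians of these 11 were 3.08 in replicate 1 and 4.32 in replicate 2, near those of all members. Of the 11, 8 lay above the median of all genes in both replicates, against 44.9% of genes with a peak and 77.8% of members. Rps19, the gene most often affected in patients, had 4.61 and 4.38. Rpl15 at 5.86 and 6.05 was the highest of them in replicate 1 and Rpl26 at 7.94 in replicate 2. Rpl35a was the lowest in replicate 1 (1.57) and Rps10 in replicate 2 (2.43). These cortex values carry no information on the blood lineage in which the disease appears.

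Among the lists of other housekeeping complexes, the mitochondrial ribosomal protein genes had a peak in both replicates in 78 of 78 genes and medians of 2.26 in replicate 1 and 3.58 in replicate 2. Proteasome subunit genes had one in 36 of 38 and medians of 2.78 and 3.62. Nuclear oxidative phosphorylation genes had one in 71 of 80 and medians of 2.83 and 4.37. Cytosolic ribosomal protein genes had the highest median of the 4 lists in each replicate. Their margin over oxidative phosphorylation genes was narrow in replicate 2, 4.47 against 4.37, and no test of the lists was made. As percentiles among all genes with a peak in the replicate, the medians were 71.7 against 64.1 in replicate 1. In replicate 2 they were 72.6 against 70.7.

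**Figure D2:**
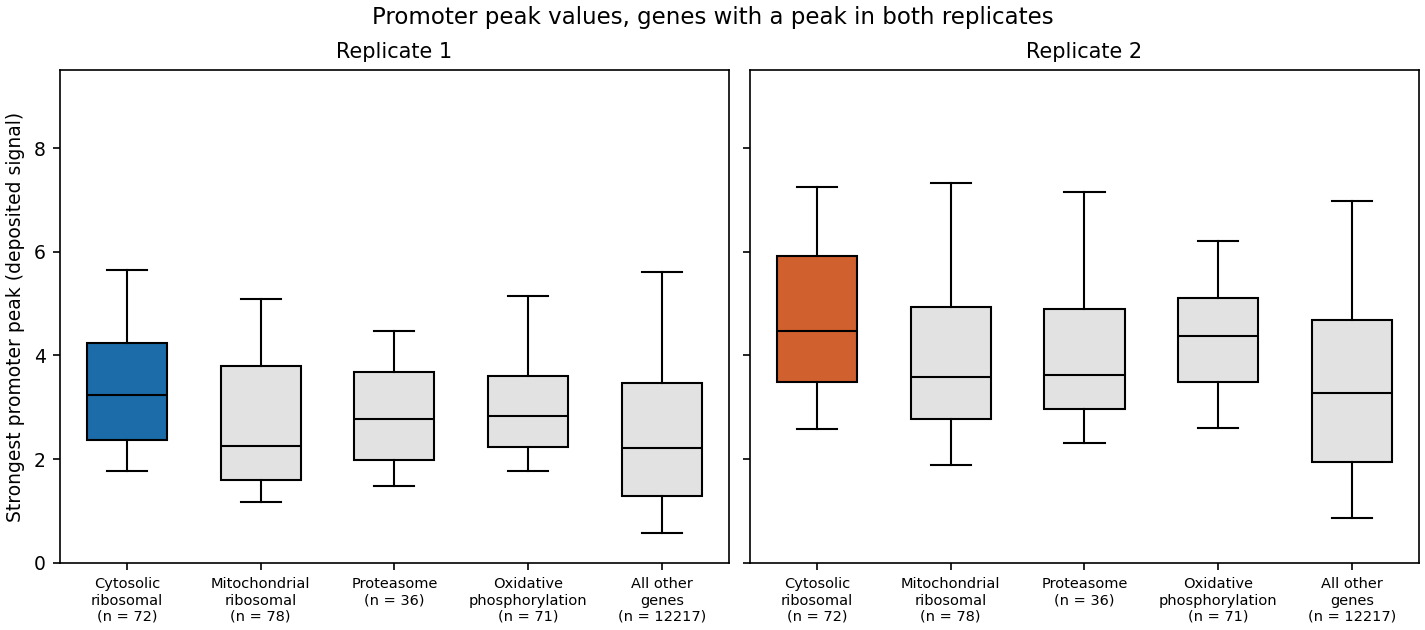
Strongest promoter peak (deposited signal) in replicate 1 (left) and replicate 2 (right) for cytosolic ribosomal protein genes, 3 other lists and all other autosomal protein-coding genes, restricted to genes with a peak in both replicates. Boxes span the quartiles with the median as a line and whiskers reach the 5th and 95th percentiles; the cytosolic ribosomal medians are 3.24 and 4.47, and those of all other genes 2.22 and 3.27.

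All of the 20 translation factors and partners listed for comparison also had a promoter peak in both replicates. Their medians were 3.64 in replicate 1 and 4.82 in replicate 2. Of the 20, 18 lay above the median of all autosomal protein-coding genes with a peak in both replicates, against 44.9% of those genes. The list was drawn up around the same 5′ pyrimidine motif, which several of these genes are known to carry. It includes Gas5 and Snhg1, which are annotated as processed transcripts and not as protein-coding genes. The elongation factor gene Eef1g had 5.56 and 7.69, and Npm1, a nucleolar protein, had 5.74 and 6.23. At the other end, Eif4ebp1, an mTOR-controlled repressor of translation, had 0.676 and 0.829. Among 14 genes for ribosome assembly and its control, all had a peak in both replicates. Of the 14, 10 lay above the median of all genes in both, against 44.9% of genes with a peak. Nop56, a core protein of the box C/D small nucleolar particle, had 5.62 and 7.10, and Larp1, which binds the pyrimidine motif, had 1.34 and 1.85.

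Ribosomal proteins that the naming rule or the chromosome left out fell into separate ranges. The autosomal genes Fau (4.66 and 7.90) and Rps3a1 (4.36 and 6.48) lay above the member median in both replicates. The X-linked genes were lower, with Rpl10 at 2.27 and 2.82, Rpl36a at 1.68 and 3.10, Rpl39 at 1.36 and 2.01, and Rps4x at 1.17 and 1.40. X-linked protein-coding genes as a whole had a peak in both replicates in 403 of 948 cases, with medians of 1.30 and 1.67. Rpl10, Rpl36a and Rpl39 lay above those medians in both replicates and Rps4x below them.

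Paralogs with an l after the number, some of which are known as tissue-restricted copies, were split. Rpl22l1 (4.06 and 6.37), Rpl36al (4.22 and 6.47), Rpl7l1 (2.17 and 2.67) and Rps27l (2.24 and 2.63) had a peak in both replicates. Rpl3l, known from heart and skeletal muscle, Rpl10l, known from testis, Rpl39l and Rps4l, annotated as a pseudogene, had none in either. Rpl22 itself had 4.15 and 4.22, so Rpl22l1 was the higher in replicate 2 and not in replicate 1.

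Processed pseudogenes of ribosomal proteins, copies made by reverse transcription that lack the original promoter, were almost all closed. Of 259 autosomal loci named as such pseudogenes, 4 had a peak within 500 bp of their start in both replicates (1.54%) and 252 had none in either. The 4 were Rpl29-ps2 (2.79 in replicate 1 and 3.40 in replicate 2), Rpl21-ps7 (0.835 and 1.02), Rps12-ps4 (0.502 and 0.615) and Rps19-ps10 (0.492 and 0.981), named after their values were seen. None of the 259 loci had its start within 1000 bp of a member's start. Members and their copies are near identical in exons, and how the authors placed reads that match both is not stated in the sources.

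Peak width set the members apart little. The median width of the strongest peak was 240 bp in both replicates, the same as in all genes with a peak. Rps19 had the widest peak, 640 and 680 bp, followed by Rps23 (460 and 420 bp), Rpl13a (380 and 400 bp) and Rpl4 (420 and 360 bp). The narrowest were those of Rpl7a and Rpl38 (220 and 120 bp each) and of Rplp0 and Rps6 (240 and 120 bp each). In replicate 1 these 4 were at or near the median width, so their narrowness rests on replicate 2.

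The strongest peak covered the representative start, taken from 1 coding transcript per gene, in both replicates in 53 of 72 members (73.6%, exact 95% interval 61.9% to 83.3%), against 56.5% of all genes with a peak. Of the 19 others, several had their peak well inside the annotated gene, as in Rpl35 (444 and 454 bp downstream), Rps25 (501 and 351 bp), Rpl30 (350 and 330 bp) and Rps10 (255 and 249 bp). The strongest peaks of the replicates overlapped in 70 of 72 members, against 94.5% of genes. In the 2 exceptions, the peak of Rpl7 was centred 188 bp upstream in replicate 1 and 232 bp downstream in replicate 2, and that of Rpl18 lay 137 bp upstream in replicate 1 and at another annotated start 2583 bp downstream in replicate 2.

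A start of another protein-coding gene lay within 1000 bp on the other strand in 10 of 72 members, against 15.0% of genes with a peak, so members did not stand out in this respect. These divergent pairs were Rpl9 with Lias, Rpl15 with Nkiras1, Rpl7a with Med22, Rps28 with Ndufa7, Rps18 with Vps52, Rpl12 with Lrsam1, Rps27a with Clhc1, Rps25 with Trappc4, Rpl35a with Iqcg and Rpl4 with Zwilch. A peak in the shared stretch counted for both genes. In 8 more members the promoter window met that of another coding gene in another arrangement, namely Rpl18 with Sphk2, Rps2 with Rnf151, Rpl3 with Syngr1, Rps24 with Polr3a, Rps14 with Ndst1, Rps27 with Rab13, Rpl35 with Arpc5l and Rps10 with the read-through gene RPS10-NUDT3. The 54 members with no such neighbour had a median over the replicates of 3.90 ± 0.81 (SD, n = 2), close to that of all 72.

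The members lay on 18 of the 19 autosomes, with 14 on chromosome 7 (19.4%), which holds 9.72% of all autosomal protein-coding genes, and none on chromosome 19, which holds 3.46%. An annotated small nucleolar RNA lay inside 27 of the members (37.5%, exact 95% interval 26.4% to 49.7%), as in Rpl13a with 4, against 1.90% of genes with a peak and 1.26% of all genes. These hosts had medians of 3.47 in replicate 1 and 4.83 in replicate 2, and the 45 members without one had 3.08 and 4.32. The ranges of both sets overlapped almost whole, and Rpl4, with 5 small nucleolar RNAs, had the lowest value.

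All 72 members had a footprint centred within 500 bp of the representative start in both replicates, against 91.2% of all genes with a peak. The median number per promoter was 6 in both replicates, against 5 in both among all genes. Footprinted bases had a median of 73 in replicate 1 and 95.5 in replicate 2 for members, against 63 and 78. Footprints of the replicates overlapped for 288 of the 419 listed near the members in replicate 1 (68.7%), against 64.3% over all genes with a peak. Bases in intervals with a false discovery rate of at most 0.001 were 611 and 709.5 of 1001 in the median member, against 577 and 656.

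Rps19 had the most footprints, 11 in replicate 1 and 16 in replicate 2, followed by Rpl7 (11 and 11), Rpl4 (10 and 11), Rps27a (10 and 10) and Rplp2 (12 and 8). The fewest were 3 and 3 in Rpl6 and 2 and 4 in Rps3. A further 5 averaged 3.5, namely Rps15 (1 and 6), Rpl24 (3 and 4), Rpsa, Rps10 and Rpl17 (4 and 3 each). Counts in the 2 replicates were only loosely alike, with an r of 0.53 over 72 members that share the libraries. The number of footprints had no visible relation to the peak value in members (r = 0.01, rho = 0.09, n = 72), against an r of 0.44 over all 12289 genes with a peak. Rpl4 had the weakest peak and 10 and 11 footprints.

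Around the start, footprints were most frequent just upstream. In replicate 1, 36.1% of members had a footprint over the base 11 bp before the start, and in replicate 2 the maximum was 41.7% at 14 bp before it. All genes with a peak reached 23.5% at 16 bp and 28.6% at 19 bp before the start. Open chromatin of any peak covered at most 88.9% and 87.5% of members at a base, against 73.4% and 73.1% of genes. How far the footprint share follows from this was not tested. Averaged over the 100 bases upstream, members had footprints at 27.4% and 31.6% of bases, against 20.9% and 25.3%.

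**Figure D3:**
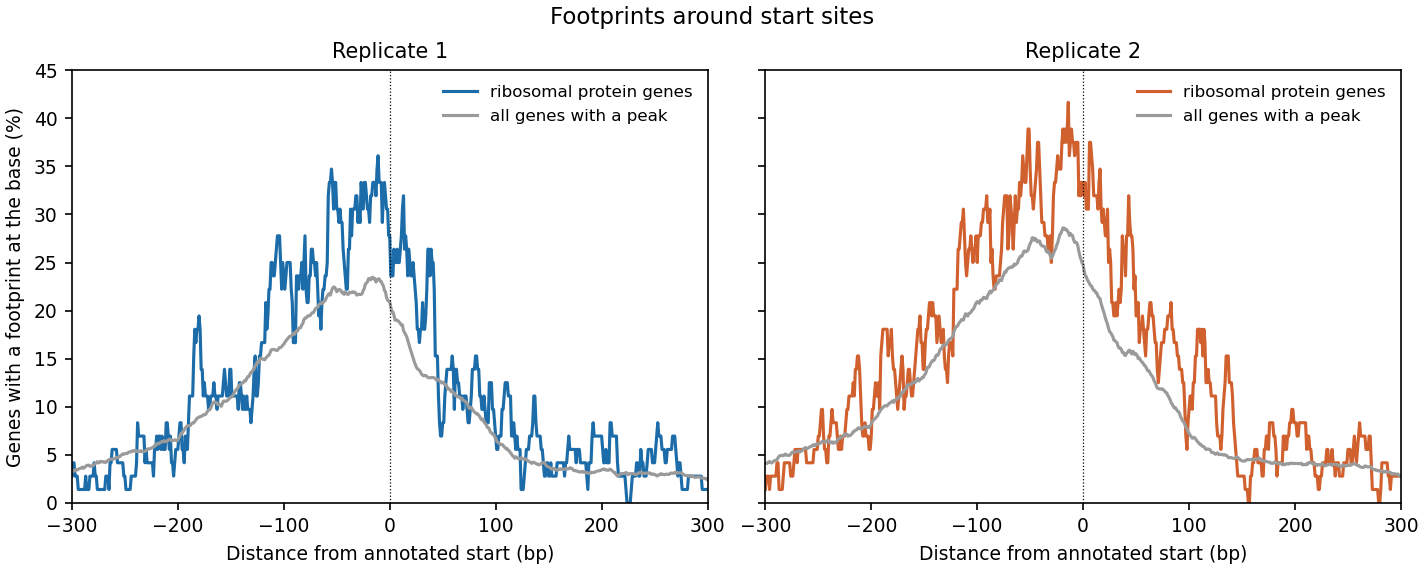
Share of genes with a footprint over each base (vertical axis, percent) by distance from the representative start (bp, negative upstream) in replicate 1 (left) and replicate 2 (right). Coloured lines are the 72 ribosomal protein genes and grey lines all 12289 genes with a peak; the members' maxima are 36.1% and 41.7%, against 23.5% and 28.6%.

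The base composition of the members differed from that of other open promoters. From 250 bases before to 50 after the start, the median GC content was 55.8%, against 61.0% for all genes with a peak. Among members, GC content and the mean log2 value ran together (Pearson's r = 0.62, Spearman's rho = 0.61, n = 72), as did CpG number (r = 0.61), while over all genes with a peak r was 0.08 for GC and 0.19 for CpG. These are correlations across genes that share both libraries, and genes are not independent replicates. The 10 highest members had GC contents of 56.3% to 67.7% and the 10 lowest 39.3% to 54.3%. DNase I cutting and sequencing both depend on base composition, and their part in this relation was not tested.

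**Figure D4:**
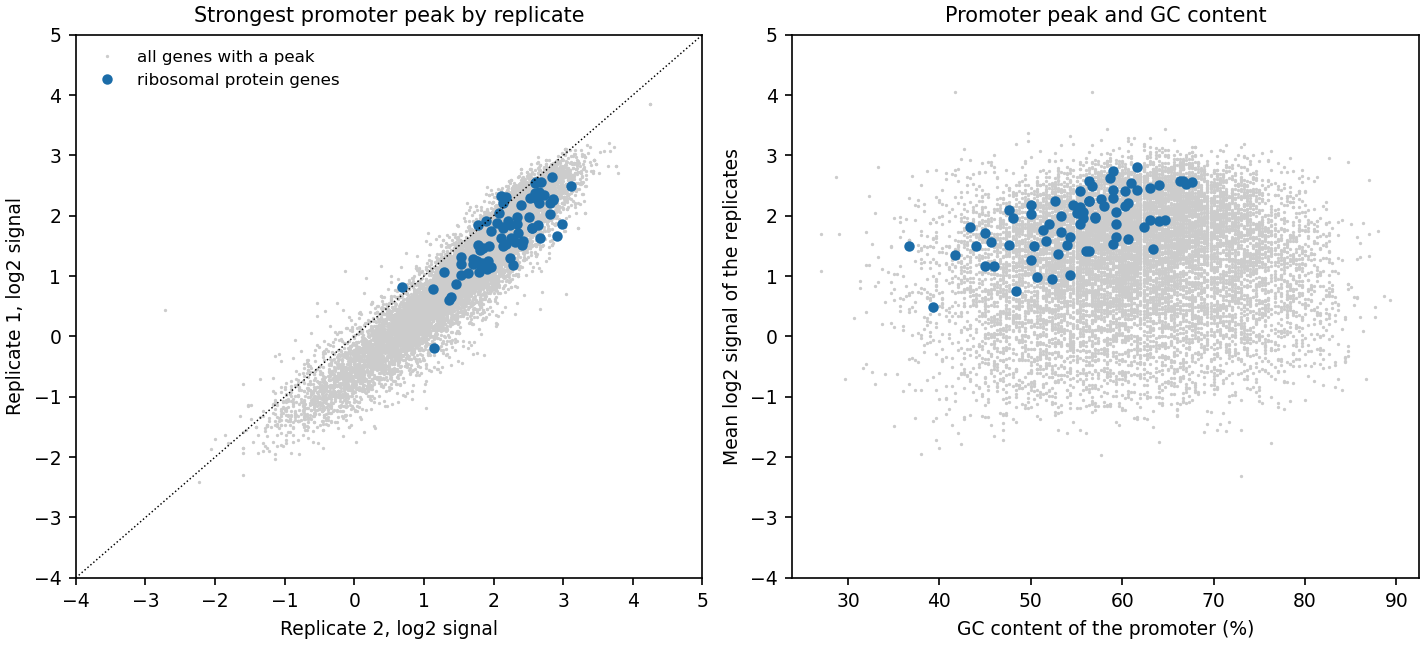
Left, log2 of the strongest promoter peak in replicate 1 (vertical) and replicate 2 (horizontal), with the dotted line of equal values. Right, mean log2 value of the replicates by GC content of the promoter. Large points are the 72 ribosomal protein genes and small grey points all 12289 genes with a peak; members rise with GC content (r = 0.62), all genes hardly (r = 0.08).

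Sequence motifs known from housekeeping promoters were searched on both strands in the same 300 bases, as exact letters. The letters CCGGAAG of ETS factors such as GABPA were in 23 of 72 member promoters, 31.9% (exact 95% interval 21.4% to 44.0%), against 17.4% of genes with a peak and 11.4% of all autosomal protein-coding genes. TGACG, the core of the cyclic AMP response element, was in 39 (54.2%, interval 42.0% to 66.0%), against 32.1% and 23.9%. TCTCGCG, the letters bound by BANP, was in 16 (22.2%, interval 13.3% to 33.6%), against 5.44% and 3.43%. At least 1 of these 3 was in 57 members (79.2%), against 45.6% of genes with a peak, a combination chosen after the shares were seen.

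The letters AAGATGG of YY1 were in 9 members (12.5%, interval 5.88% to 22.4%), against 7.29% and 6.38%, and GCATGCG of NRF1 in 8 (11.1%, interval 4.92% to 20.7%), against 6.58% and 4.46%. Both intervals, resting on few members, take in the share of genes with a peak. That of NRF1 begins just above the 4.46% of all genes. TATAAA was in 8 (11.1%), against 6.93% of genes with a peak and 12.7% of all genes. GGGCGG, the letters of Sp factors, was in 35 (48.6%, interval 36.7% to 60.7%), against 63.9% and 46.1%. CCAAT, bound by NF-Y, was in 22 (30.6%), against 38.5% and 38.2%. A match of letters is a description of the sequence and does not show that a factor bound there.

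**Figure D5:**
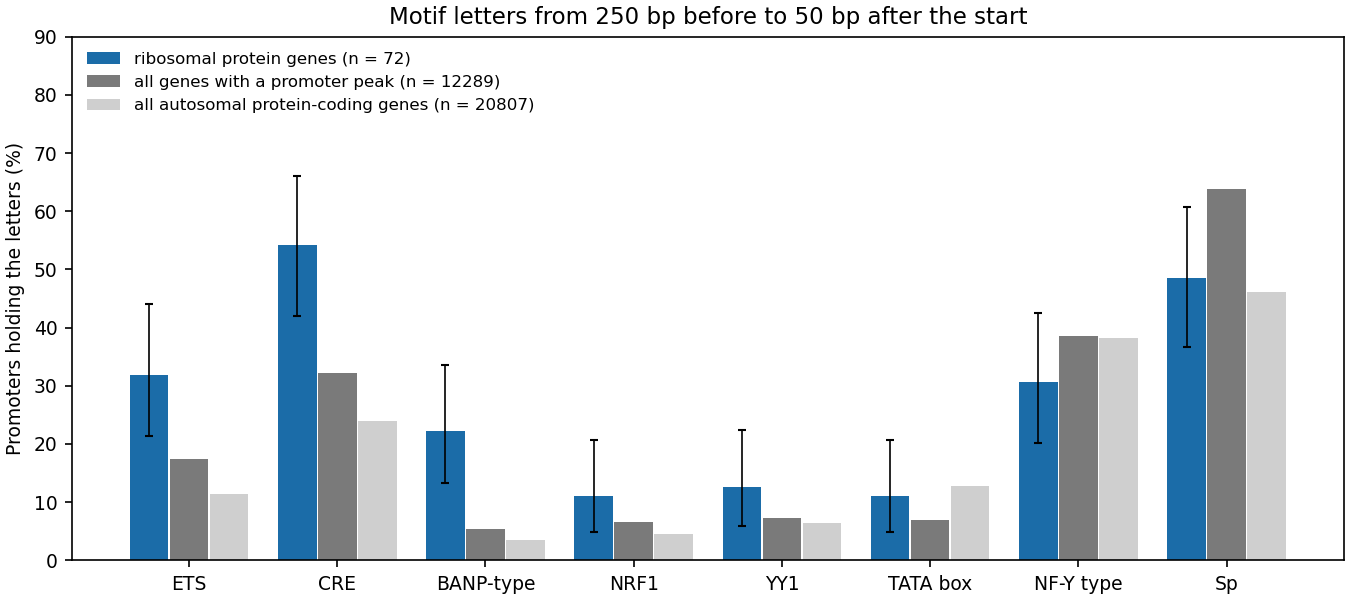
Share of promoters (percent, axis from 0) that hold the letters of each motif on either strand between 250 bp before and 50 bp after the start. Blue bars are the 72 ribosomal protein genes with exact 95% binomial intervals, dark grey bars the 12289 genes with a peak and light grey bars all 20807 autosomal protein-coding genes; the BANP-type letters stand at 22.2%, 5.44% and 3.43%.

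The TCTCGCG letters lay close to the start. Of 24 occurrences in 16 members, 19 were within the 100 bases upstream. Since TCTCGCGAGA reads the same on both strands, some places count as 2 overlapping occurrences. Whole occurrences inside a footprint numbered 9 in replicate 1 and 14 in replicate 2 of the 24, 37.5% (exact 95% interval 18.8% to 59.4%) and 58.3% (36.6% to 77.9%), against 20.4% and 26.4% of 864 occurrences in genes with a peak. Among those with an occurrence inside a footprint in both replicates were Rpl7a, Rpl26, Rps6 and Rpl17. The promoters of 3 of them, written as above, show the letters within the capitals, from Rpl7a at chr2:26910614-26910783 and Rpl26 at chr11:68901416-68901585 on the plus strand and Rps6 at chr4:86857393-86857562 on the minus strand.
Rpl7a: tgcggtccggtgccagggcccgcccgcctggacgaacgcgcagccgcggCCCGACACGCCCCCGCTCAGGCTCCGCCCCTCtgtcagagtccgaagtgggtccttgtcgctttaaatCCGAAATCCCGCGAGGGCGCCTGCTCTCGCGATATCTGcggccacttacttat
Rpl26: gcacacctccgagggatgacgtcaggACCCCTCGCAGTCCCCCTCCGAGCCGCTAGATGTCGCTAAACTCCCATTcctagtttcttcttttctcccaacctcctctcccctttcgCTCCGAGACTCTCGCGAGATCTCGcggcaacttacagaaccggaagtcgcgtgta
Rps6: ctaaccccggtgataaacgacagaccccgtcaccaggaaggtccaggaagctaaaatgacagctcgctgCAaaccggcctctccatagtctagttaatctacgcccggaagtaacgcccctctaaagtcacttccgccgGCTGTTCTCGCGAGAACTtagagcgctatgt
Counted from the start used for these sequences, the letters begin 9 bases before it in Rpl7a, at 26 and 23 bases before it in Rpl26 and at 6 and 3 bases before it in Rps6. Rpl26 holds another occurrence, 16 bases before the start, that is not wholly footprinted in both replicates. Rpl26 (3.64 and 7.94) and Rpl7a (4.79 and 7.25) were among the highest values of replicate 2, and Rps6 was near the middle.

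ETS letters lay inside a footprint in 7 of 30 occurrences in replicate 1 and 9 of 30 in replicate 2, against 17.5% and 21.1% of occurrences in genes with a peak. The members with such a place in both replicates were Rpl15, Rpl31, Rps21 and Rps18. TGACG was footprinted in 19 and 24 of 56 occurrences (33.9% and 42.9%), against 33.0% and 40.2%. In Rpl9 both replicates footprinted the letters beginning 95 bases before the start, the capitals TCATGACGCGA above. Sp letters were inside a footprint in 20 and 33 of 57 occurrences (35.1% and 57.9%), against 29.1% and 41.6%. CCAAT was inside one in 2 and 4 of 31 occurrences (6.45% and 12.9%), against 11.6% in each replicate over all genes with a peak. TATAAA was inside a footprint in 4 and 2 of 9 occurrences (44.4% and 22.2%, exact 95% intervals 13.7% to 78.8% and 2.81% to 60.0%), against 4.87% and 3.73%. The NRF1 letters were inside one in 5 and 4 of 10, against 64.1% and 65.7%, and the YY1 letters in 1 of 9 in each replicate, against 10.3% and 9.19%. In Rplp0 the CCAAT letters beginning 87 bases before the start are wholly in capitals above, and those beginning 36 bases before it are not.

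Members with a motif did not always have the higher values. Members with the letters of NF-Y, the cyclic AMP response element, Sp factors, the TATA box or BANP had the higher median in both replicates, and members with those of YY1 the lower. The 8 members with TATAAA had 3.41 and 5.31, against 3.14 and 4.40 in the 64 without. Over all genes with a peak TATAAA went with the lower medians, 1.92 and 2.83 against 2.26 and 3.31. The members with CCAAT letters had a median of 3.79 in replicate 1 and 5.76 in replicate 2, and the 50 members without had 2.87 and 4.02. Over all genes with a peak the medians with CCAAT were 2.77 and 3.83, and without it 1.99 and 2.97. The 9 members with the YY1 letters had 2.37 and 3.58 and the 63 without had 3.35 and 4.54, whereas over all genes with a peak those with the letters had 2.79 and 3.86 and those without 2.19 and 3.22. The 10 highest members included 6 with CCAAT and 9 with GGGCGG, and the 10 lowest 1 and 4. Members with GGGCGG also had the higher GC content, a median of 59.0% against 54.0% without it, and GC content ran with the value as given above. Members with ETS letters had 3.60 and 4.41 and the 49 without had 3.09 and 4.53, a difference that turned round between replicates, as it did for NRF1.

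The pyrimidine motif was looked for as a C at the start, with the base before it and the 4 after it all C or T. At the representative GENCODE start, a C was in 24 of 72 members (33.3%), against 17.2% of genes with a peak and 17.7% of all autosomal protein-coding genes. The whole tract was in 7 (9.72%), against 1.83% and 1.75%. Over the 52 members in the RefSeq table, the tract was at the GENCODE start in 4 (7.69%), against 1.77% of the genes in that table. At any RefSeq start of the same 52, of which 8 have more than 1, a C was in 19 (36.5%), against 16.5% of the 15687 autosomal protein-coding genes in that table, and the tract in 13 (25.0%, exact 95% interval 14.0% to 38.9%), against 2.15%. In the same genes the share with the tract thus differed between the annotations by more than 1.5 times. In several of them the GENCODE start lies upstream of the RefSeq start, by 45 bases in Rps6 and 66 bases in Rps12.

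Replicate 1 gave smaller values than replicate 2 for 66 of 72 members, against 93.7% of all genes with a peak. The median log2 difference, replicate 1 minus replicate 2, was -0.50 for members and -0.50 for all genes, the same shift. The 6 members with a higher value in replicate 1 were Rps21 (5.01 in replicate 1 and 4.31 in replicate 2), Rpl6 (1.76 and 1.605), Rpl27 (4.96 and 4.53), Rps19 (4.61 and 4.38), Rps26 (3.58 and 3.42) and Rpsa (3.78 and 3.72), which is also known as the laminin receptor.

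After the median of all genes was taken off, 3 members were over 1.5-fold higher in replicate 1, against 3.50% of genes, and 4 were over 1.5-fold higher in replicate 2, against 5.16%. Higher in replicate 1 were Rps21, Rpl6 and Rpl27, with centred log2 differences of 0.72, 0.64 and 0.63. Higher in replicate 2 were Rpl4 (-0.84), Rps13 (-0.74), Rpl26 (-0.62) and Rpl5 (-0.59). The next was Rps24, at -0.54, with 3.10 in replicate 1 and 6.36 in replicate 2, and Rps13 had 3.18 and 7.53. Both shares were near those of all genes.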

How the data were processed

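DNase-seq of right cerebral cortex was deposited as mm10 peak lists, footprints and false discovery rate intervals for 2 replicates in 1 group. The peak value is a signal the authors deposited. The sources used here name neither its normalization nor an aligner or peak caller. The interval lists carry a q-value that the authors deposited, only below 0.05, and the footprint lists carry a constant p-value threshold of 0.01, per the deposited files. The shorter of each replicate's 2 peak lists was the main list and the longer an alternative.

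Peaks and footprints were joined with start sites of GENCODE M21 on the GRCm38.p6 sequence in Python 3.11.15 with numpy 2.4.6, pandas 2.3.3, scipy 1.17.1 and pysam 0.24.0. No peak lay beyond the end of a chromosome. Peak overlaps needed at least 1 bp, and footprints were counted by their midpoint around 1 start per gene (a coding transcript, principal isoform, best support, most upstream). The joins and the motif search were tested on simulated data. RefSeq promoter sequences were matched by symbol for 52 of 72 members, and the printed sequences were taken from that table alone. Base composition, motif letters and the bases at GENCODE starts were read from the GRCm38.p6 sequence for all genes. The mice are hybrids, and the printed letters are those of the reference genome, not of CAST/EiJ.

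With 1 group and 2 replicates no test between conditions exists, and no p-values were computed. Binomial and Poisson intervals are exact and cover counting error only. Genes were named by rule, as the 10 highest and 10 lowest values, the 5 most and fewest footprints, the 5 largest replicate differences in each direction, the widest and narrowest 3 peaks with ties, and members sharing a promoter window. The members and lists were chosen with earlier results of these data known. Values of some genes that this rule names are not reported here. Alternatives were the longer list, the stronger 50% of peaks, the peak midpoint, 1 start per gene, windows of 100 and 2000 bp, each replicate alone, other member sets, summed peaks and other footprint rules.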

Additional observations from a re-analysis of the deposited data

How the results depend on the processing

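All 72 members kept a promoter peak in both replicates with the stronger 50% of peaks, the peak midpoint, 1 start per gene and a window of 100 bp, the alternatives that could have removed one. Their median value, 3.85, lay between 3.797 and 4.31 in the alternatives that use both replicates, and that of all other genes, 2.75, between 2.55 and 2.99. With a replicate left out these medians are those of the remaining replicate, 3.24 and 4.47 for members and 2.17 and 3.15 for other genes, which tests nothing. The median width was 240 bp in each run. The share of all autosomal protein-coding genes with a peak in both replicates, 59.1%, became 63.6% with the longer list, 53.2% with the stronger 50% of peaks, 54.2% with 1 start per gene, 54.7% with a window of 100 bp and 63.0% with 2000 bp, and lay between 60.6% and 61.6% with a replicate left out. The median footprints per promoter of members, 6, became 3 within 100 bp, 6.25 within 2000 bp and 4 when only footprints found in both replicates counted. Members above the median of all genes with a peak in both replicates numbered 56 in the main setting, 62 with the longer list and 47 with the stronger 50% of peaks. That median was taken anew in each setting, over 12289, 13240 and 11062 genes, so the bar itself moved. The share of all genes above it was not computed for these alternatives. The median replicate difference stayed negative, between -0.50 and -0.43. After seeing the data, the peak covering the start (median 4.05), overlapping peaks only (median difference -0.50) and other starts for the pyrimidine tract were added (9.72% of all members at GENCODE starts, and, for the 52 that RefSeq holds, 7.69% at GENCODE and 25.0% at RefSeq starts). No paired analysis was possible because there is only 1 group. With 2 replicates, the spread is an estimate from 2 values.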
